A study of Mus musculus with 8 samples.

Results

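Genes of cellular iron handling, 10 of the 24033 symbols in the count table, were followed in mouse dorsal root ganglia after a nerve injury. They are the metalloreductases Steap1, Steap2 and Steap3, the iron importers Tfrc and Slc11a2, the ferritin subunits Fth1 and Ftl1, the iron exporter Slc40a1, and the haem oxygenases Hmox1 and Hmox2. They were chosen by symbol, with earlier fold changes of the same injury comparison in view. Their values in that comparison, and on which side of the genome-wide threshold each fell, are therefore a description and no evidence of a change. The sciatic nerve was crushed on 1 side only, and 24 h later the L4 to L6 ganglia were taken, which hold the cell bodies of sensory neurons with their glia. The injury group is the crushed side and the naive group the opposite side of injured mice, with 4 libraries in each and 2 mice pooled per library. The naive ganglia thus come from mice that carried a crush on the other side; the labels give no strain, sex or age. The labels call the tissue dissociated ganglia.

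Iron reaches most cells bound to transferrin, which the transferrin receptor Tfrc carries into endosomes. There a Steap reductase turns ferric into ferrous iron, and Slc11a2 (DMT1) moves it to the cytosol. Ferritin, a shell of Fth1 and Ftl1 subunits, stores what is not used, Slc40a1 (ferroportin) exports it, and the haem oxygenases release it from haem. Steap1 differs from the other Steap proteins in lacking the NADPH-binding reductase domain, so that it depends on a partner for electrons. Sensory neurons with long axons carry a large stock of mitochondria, whose haem and iron-sulfur proteins draw on this supply.

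Several of these transcripts carry iron-responsive elements, hairpins with a CAGTGN loop that the iron regulatory proteins Aco1 and Ireb2 bind when iron is scarce. Bound near the 5′ end they hold back translation, as in ferritin and ferroportin; bound in the 3′ untranslated region they protect the message, as in Tfrc. The elements are shown because they separate members whose mRNA level is known to follow iron from members whose translation does. The search asked for a C, 5 bases, CAGTG followed by A, C or T, and 5 bases that pair with the first 5, on the sense strand of GENCODE M21 coding transcripts (GRCm38). It found 3 members in 5′ and 1 member in 3′ untranslated regions. The same letters were found in 0.103% and 0.464% of the 21354 genes searched, which leave out 1 autosome and the mitochondrial genome. The element was found in 4 of 5 coding transcripts of Fth1, 1 of 2 of Ftl1 and 1 of 4 of Slc40a1. Each Tfrc element was found in 1 of 3. Capitals mark the loop.
Fth1, 5′, chr19:9982733-9982759, plus strand: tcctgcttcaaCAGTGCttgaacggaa
Ftl1, 5′, chr7:45459780-45459806, minus strand: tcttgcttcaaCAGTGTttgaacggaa
Slc40a1, 5′, chr1:45925466-45925492, minus strand: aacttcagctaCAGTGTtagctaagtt
Tfrc, 3′, chr16:32631220-32631246, plus strand: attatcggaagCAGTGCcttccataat
Tfrc, 3′, chr16:32631599-32631625, plus strand: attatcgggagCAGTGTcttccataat
Tfrc, 3′, chr16:32631664-32631690, plus strand: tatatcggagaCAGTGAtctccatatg
Tfrc, 3′, chr16:32631711-32631737, plus strand: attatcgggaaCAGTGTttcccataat
The ferritin elements share both arms of the stem, TTCAA and TTGAA, and the search found 4 elements in Tfrc. An element with other loop letters, or with an unpaired base among the 5 of the stem, would have been missed. Slc11a2 transcripts are known to end at alternative poly(A) sites, with an element in one form only; these letters were not found in its annotated coding transcripts, and the table, with 1 value per gene, does not separate the forms.

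Library totals ranged from 15422482 to 29368107 counts, and levels are CPM, the usual counts per unit of library size, scaled with TMM, edgeR's normalization for library composition. The reads mark transcript ends, so a level is not divided by transcript length, and levels of different genes below are set side by side on this end-count scale. All 10 sensory neuron markers were detected, with a sum of 20875 to 23223 CPM in naive and 21809 to 25774 CPM in injury libraries; of these Isl1 and Scn9a fell (edgeR adjusted p = 0.00212 and 0.0177). The 8 satellite glia markers summed to 1364 to 1726 and 1505 to 1738 CPM, and Glul among them rose 1.41-fold (adjusted p = 6.37e-07). The 6 fibroblast markers summed to 157 to 326 and 171 to 257 CPM, and Pdgfra among them rose 2.26-fold (adjusted p = 0.0287). The part of these cell types in the results below was not tested. Macrophage markers summed to 12.3 to 27.3 CPM in naive and 15.5 to 25.9 CPM in injury libraries, with none of the 11 in the table at 0 in all libraries. Among the 9 red blood cell markers found, 5 were listed at 0 throughout (Hba-a1, Hba-a2, Hbb-bt, Hbb-b1 and Hbb-b2), and the sum was 2.76 to 24.3 and 6.90 to 13.9 CPM. Naive replicate 1, the shallowest library, stood at 46.6 on the second principal component and the others between -21.1 and 11.3; results without it are named where they differ.

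Of the 10 genes, 9 passed the low-count filter. Steap1 was 7.60 times and Slc11a2 1.48 times as high after injury, and these 2 fell past the genome-wide threshold. A gene past it, an edgeR adjusted p under 0.05 over all genes tested, is termed called. Among the 13639 genes tested 12.6% were called, 8.12% higher and 4.47% lower after injury; since the fold changes were known when the genes were chosen, nothing is read from the members' share or from any member's side of the threshold. In the same 2 genes the groups did not overlap, and 16.8% of tested genes had no overlap in either direction. Ftl1 did not pass the filter.

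**Figure D1:**
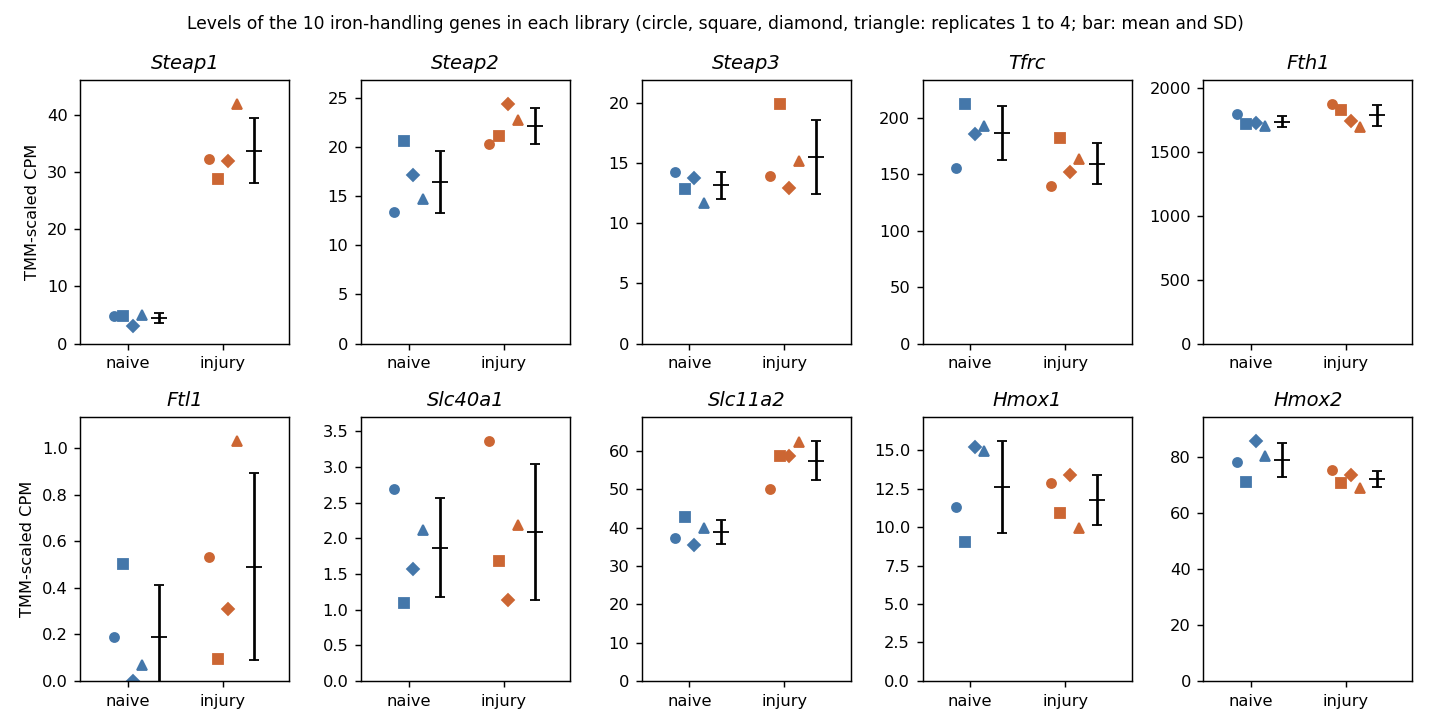
TMM-scaled CPM (y axis, from 0) of each of the 10 genes in the 4 naive (blue) and 4 injury (orange) libraries; symbols mark replicates 1 to 4 and the black bar the mean and SD. Steap1 and Slc11a2 separate the groups, while the groups overlap in the other genes.

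Steap1 (chromosome 5, 5736317 to 5749326, minus strand, GRCm38) was the member that moved furthest. Its level was 4.83, 4.82, 3.08 and 5.01 CPM in naive replicates 1 to 4 and 32.2, 28.9, 31.9 and 42.0 CPM in injury replicates 1 to 4. Within each replicate number the injured side was the higher, by 5.98-fold to 10.4-fold, and the groups lay far apart. The mean went from 4.44 ± 0.909 to 33.7 ± 5.68 CPM (SD, n = 4), a log2 fold change of 2.92 ± 0.17 (SE), from 401 naive to 2663 injury counts in all. That placed it at rank 41 of the 1108 genes called higher. In naive ganglia 24.4% of tested genes stood at or below its level, and 63.3% did so in injured ganglia. In bulk tissue more cells of a type and more RNA per cell cannot be told apart.

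The remaining Steap genes moved far less. Steap2 (chromosome 5, 5664829 to 5694578), a reductase of ferric iron and cupric copper, stood at 13.4, 20.6, 17.1 and 14.7 CPM in naive and 20.3, 21.1, 24.4 and 22.7 CPM in injury libraries. Naive replicate 2 reached into the injury range and the other naive libraries lay below it. The means were 16.4 ± 3.16 and 22.1 ± 1.81 CPM (log2 fold change 0.43 ± 0.14). It was higher on the injured side in all 4 replicate numbers, by 1.03-fold to 1.54-fold.

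Steap3 (chromosome 1, 120190757 to 120272705), the endosomal ferrireductase of red cell precursors, had 14.2, 12.8, 13.8 and 11.7 CPM in naive and 13.9, 19.9, 12.9 and 15.1 CPM in injury libraries. The groups overlapped, with injury replicate 2 the highest library, and the log2 fold change was 0.24 ± 0.16. It was 0.09 without that library. Steap4, the remaining gene of the family and not among the 10, was low, at 0.875 to 1.63 CPM in naive and 1.06 to 1.76 CPM in injury libraries.

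Steap1 and Steap2 lie 41738 bases apart on the same strand of chromosome 5, and they changed place in the order of levels. Steap2 was 3.71 times as high as Steap1 in naive ganglia, and Steap1 was 1.53 times as high as Steap2 in injured ganglia, with no overlap between the genes' libraries in either group. Steap1 made up 14.2%, 12.2%, 8.83% and 15.5% of all Steap counts in the naive libraries. In the injury libraries the shares were 47.7%, 40.6%, 45.1% and 51.4%. A single library's share was known to within a few points (95% exact binomial interval 13.3% to 18.0% for naive replicate 4 and 48.7% to 54.1% for injury replicate 4, counting error only). The summed family level went from 35.2 ± 3.04 to 72.8 ± 6.09 CPM.

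**Figure D2:**
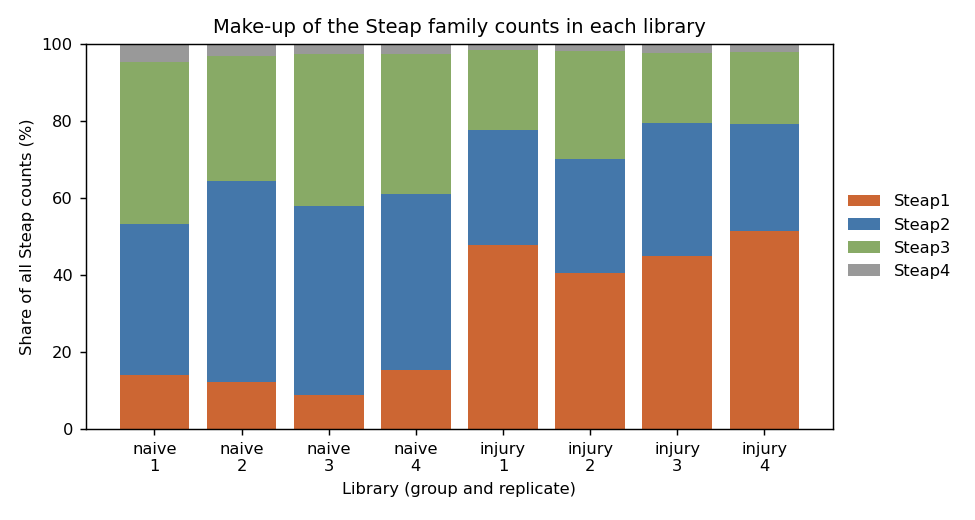
Share of Steap1, Steap2, Steap3 and Steap4 in the summed Steap counts (y axis, percent) of each library. Steap1 holds 8.83% to 15.5% in the naive and 40.6% to 51.4% in the injury libraries.

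The promoter of Steap1 is shown because its gene differed most between the groups. The 250 bases before the RefSeq start (GRCm38.p6, chr5:5749318-5749567, minus strand, 70.8% G and C) were searched on both strands for AP-1 (TGANTCA), the cAMP response element (TGACGTCA), the ATF4-C/EBP element (TGATGNAA), the antioxidant response element (TGACNNNGC) and the STAT element (TTCNNNGAA); a match is marked in capitals.
Steap1: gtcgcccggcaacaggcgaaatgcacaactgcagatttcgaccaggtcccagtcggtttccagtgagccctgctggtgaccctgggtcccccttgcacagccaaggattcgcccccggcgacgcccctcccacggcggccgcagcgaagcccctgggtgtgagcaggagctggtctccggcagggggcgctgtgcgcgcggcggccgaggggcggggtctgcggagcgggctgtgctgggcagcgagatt
None of these letters occurred in this window. They occur in 6.75%, 1.55%, 3.45%, 10.2% and 7.02% of the 32851 RefSeq promoter windows of the same length. Windows were found for 7 of the 10 members; the only matches were in Steap2, with an antioxidant response element match (TGACTCGGC) 25 to 17 bases before its first listed start and a STAT element match (TTCGTGGAA) 135 to 127 bases before its second.

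The iron importers differed from each other. Slc11a2 (chromosome 15, 100387898 to 100425072, minus strand), which passes ferrous iron through endosomal and plasma membranes, had 37.4, 42.7, 35.4 and 39.8 CPM in naive and 50.2, 58.7, 58.8 and 62.2 CPM in injury libraries. The lowest injury library lay above the highest naive one. The means were 38.8 ± 3.18 and 57.5 ± 5.12 CPM, a log2 fold change of 0.56 ± 0.10. Gm5475 overlaps it on the opposite strand but held 43 counts in all 8 libraries.

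Tfrc (chromosome 16, 32608920 to 32632794), the transferrin receptor with the 4 elements shown above, had 155, 212, 186 and 193 CPM in naive and 140, 182, 152 and 163 CPM in injury libraries. The groups overlapped, but within each replicate number the injured side was lower, at 0.818 to 0.899 of the opposite side. The log2 fold change was -0.23 ± 0.09. As a description only, Steap2 and Tfrc lay outside the threshold in the fit used here and inside it with the replicate number as a block, which makes 4 of the 10 genes; 14.8% of all genes tested lay inside it then. Tfrc also lay inside it with library totals, without naive replicate 1 (log2 fold change -0.30) and without injury replicate 2. Steap2 lay inside it in 7 of 15 alternatives, the block among them.

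The ratio of Tfrc to Slc11a2 counts, which does not depend on library scaling, was 4.15 to 5.25 in naive and 2.58 to 3.11 in injury libraries, without overlap. Slc11a2 alone already separated the groups and Tfrc did not, so the ratio restates these values and is no further evidence. How many gene pairs separate the groups in this way was not computed. Of the 10 genes 3 (Steap1, Steap2 and Slc11a2) were higher on the injured side in all 4 replicate numbers, as were 17.2% of tested genes. Tfrc and Hmox2 were lower in all 4, as were 15.5%.

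**Figure D3:**
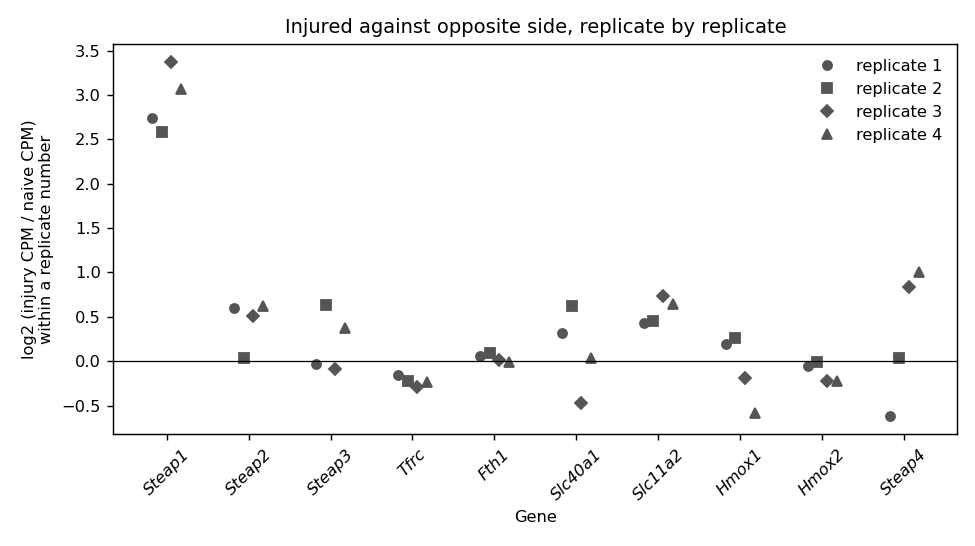
Log2 ratio of injury to naive CPM within each replicate number (y axis) for 9 of the members and Steap4; symbols mark the replicate and the line a ratio of 1. Steap1 lies far above the line in all 4, and Tfrc lies below it in all 4. Steap3, Fth1, Slc40a1, Hmox1 and Steap4 fall on both sides.

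Fth1 (chromosome 19, 9980598 to 9985098), the ferritin heavy chain that oxidises iron for storage, was the most abundant member and nearly level. It had 1797, 1716, 1727 and 1702 CPM in naive and 1877, 1827, 1743 and 1693 CPM in injury libraries. The groups overlapped and the log2 fold change was 0.04 ± 0.05; it was -0.013 with library totals in place of TMM. Its biological coefficient of variation, the spread between replicates beyond counting error, was 6.13%, against a median of 14.2% for tested genes, and only 0.389% of tested genes varied as little. In naive level 99.7% of tested genes stood at or below Fth1, and its variation was not compared with that of genes of like level. Fth1 was 9.31 times as high as Tfrc in naive and 11.2 times in injured ganglia.

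Ftl1 (chromosome 7, 45457944 to 45459884), the ferritin light chain, is abundant in most tissues but held 3, 11, 0 and 2 counts in naive and 12, 2, 6 and 17 counts in injury libraries. The 0 allows up to 0.134 CPM at 3 counts, for counting error only. GENCODE lists 3 further loci named as Ftl1 or Ftl2 copies (Ftl1-ps1, Ftl1-ps2 and Ftl2-ps), which were not analysed here, and whether reads shared with them were lost in counting was not tested. No direction is given for Ftl1.

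Slc40a1 (chromosome 1, 45908068 to 45926523), the exporter ferroportin, was scarce in the ganglion. It had 2.70, 1.09, 1.56 and 2.12 CPM in naive and 3.36, 1.68, 1.13 and 2.18 CPM in injury libraries, from 22 to 76 counts. The groups overlapped (log2 fold change 0.17 ± 0.46), and the sign turned without naive replicate 2 (-0.02) or injury replicate 1 (-0.17). Its coefficient of variation, 40.4%, exceeded that of 85.6% of tested genes. Only 13.8% of tested genes stood at or below its naive level, and genes of like level were not compared.

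The haem oxygenases overlapped between the groups. Hmox1 (chromosome 8, 75093621 to 75100589), the inducible enzyme, had 11.3, 9.06, 15.2 and 14.9 CPM in naive and 12.9, 10.9, 13.4 and 9.93 CPM in injury libraries, with overlapping groups (log2 fold change -0.10 ± 0.18). Hmox2 (chromosome 16, 4726361 to 4766742), the constitutive enzyme of neurons, had 77.9, 71.1, 85.6 and 80.4 CPM in naive and 75.3, 70.5, 73.4 and 69.0 CPM in injury libraries. The log2 fold change of Hmox2 was -0.13 ± 0.08, with naive replicate 2 inside the injury range. Hmox2 was 6.24 times as high as Hmox1 in naive and 6.12 times in injured ganglia. Cdip1 overlaps Hmox2 on the opposite strand with 19078 counts in all, and the Hmox2 counts are uncertain because whether counting used strand is not stated in the sources. Hmox1 and Slc40a1 are known for high expression in macrophages that recycle red cells. The macrophage and red blood cell marker sums given above overlapped between the groups. Single macrophage markers differed in direction, with Cx3cr1 at 2.20 and Cd163 at 0.470 times the naive level, neither called. With 5 red blood cell markers at 0 throughout, that sum rests on few genes. The part of these cells in the Hmox1 and Slc40a1 levels was not tested.

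In naive ganglia the order of levels was Fth1, Tfrc, Hmox2, Slc11a2, Steap2, Steap3, Hmox1, Steap1, Slc40a1 and Ftl1. Steap2 and Steap3 overlapped over the libraries, as did Steap3 and Hmox1, and the other neighbours did not. In injured ganglia Steap1 had moved up to stand between Slc11a2 and Steap2 without overlap, and only Steap3 and Hmox1 overlapped.

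The 5 genes whose log2 CPM, centred over the 8 libraries, lay nearest to Steap1 among 9807 genes of at least 5 CPM were Sox11, Mchr1, Sox9, Smim3 and Kif22. The root mean square difference from Steap1 was 0.27 for Sox11 and 0.33 for Kif22 on the log2 scale. Sox11 and Sox9 encode SRY-box transcription factors, Mchr1 a receptor for melanin-concentrating hormone and Kif22 a kinesin. Sox9 went from 4.51 ± 1.27 to 41.8 ± 9.84 CPM and Mchr1 from 1.72 ± 0.492 to 13.8 ± 2.43 CPM. The naive means of both lay below 5 CPM, so they reached that limit only through the injury libraries.

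Further genes were taken from 7 lists of 100 genes in all, written from textbook knowledge of iron, haem and copper and of Nrf2 targets and lipid peroxide defence. Earlier results of these data were known when the lists were written. The lists' share of called genes and their adjusted p-values are therefore a description and no independent evidence of a pathway change. Of 89 tested, 11 rose and 2 fell in edgeR's test, 14.6% against 12.6% of all genes, and 18 had no overlap between groups (20.2%, against 16.8% of all genes). The Nrf2 and lipid peroxide list, with 12 of the tested genes, held 6 of the 13 called genes and 6 of the 18 without overlap. Nothing is read from the difference to all genes. Scaling by library totals gave 9 higher and 5 lower. The median log2 fold change of the tested list genes was -0.01, against -0.004 over all genes tested.

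Of 14 genes of iron uptake and intracellular transport 1 rose, Cybrd1, a cytochrome b reductase of ferric iron in the gut. It had 5.46, 2.91, 4.64 and 5.38 CPM in naive and 6.51, 9.17, 11.6 and 10.8 CPM in injury libraries, with injury replicate 1 the closest to the naive range. The log2 fold change was 1.04 ± 0.24 (edgeR adjusted p = 0.00419). The list had 2 called genes without naive replicate 1, and 2 with limma-voom. Of 14 genes of iron sensing, export partners and systemic control, 7 were tested. EdgeR called 0 of them, as did DESeq2 and limma-voom, and the number below 0.05 before adjustment was also 0. The iron sensors Aco1 and Ireb2 were among them, at 21.5 ± 2.48 and 21.3 ± 2.11 CPM and at 57.0 ± 3.69 and 59.0 ± 5.69 CPM in naive and injury libraries.

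Of 13 genes of haem synthesis edgeR called 0, although 2 lay below 0.05 before adjustment. DESeq2 called 1, limma-voom called 0, and 1 was called with library totals or a mean of at least 5 CPM. The median log2 fold change of the 13 was -0.12. Of 9 tested genes of haem breakdown and transport 3 rose and none fell. Bach1, the haem-sensing repressor of Hmox1, rose by 1.12 ± 0.14 on the log2 scale, at 13.6 ± 1.74 CPM in naive and 29.5 ± 3.86 CPM in injury libraries (adjusted p = 1.88e-06), beside the overlapping Hmox1 levels above. The haem exporter gene Flvcr1, listed in the table as Mfsd7b, rose 1.31-fold (adjusted p = 0.00202). Por, which passes electrons to haem oxygenase and to cytochrome P450 enzymes, rose 1.23-fold (adjusted p = 0.0365). Por was not called with library totals or without any single library other than naive replicate 1 (adjusted p 0.0563 to 0.148, over all alternatives 0.00750 to 0.148).

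**Figure D4:**
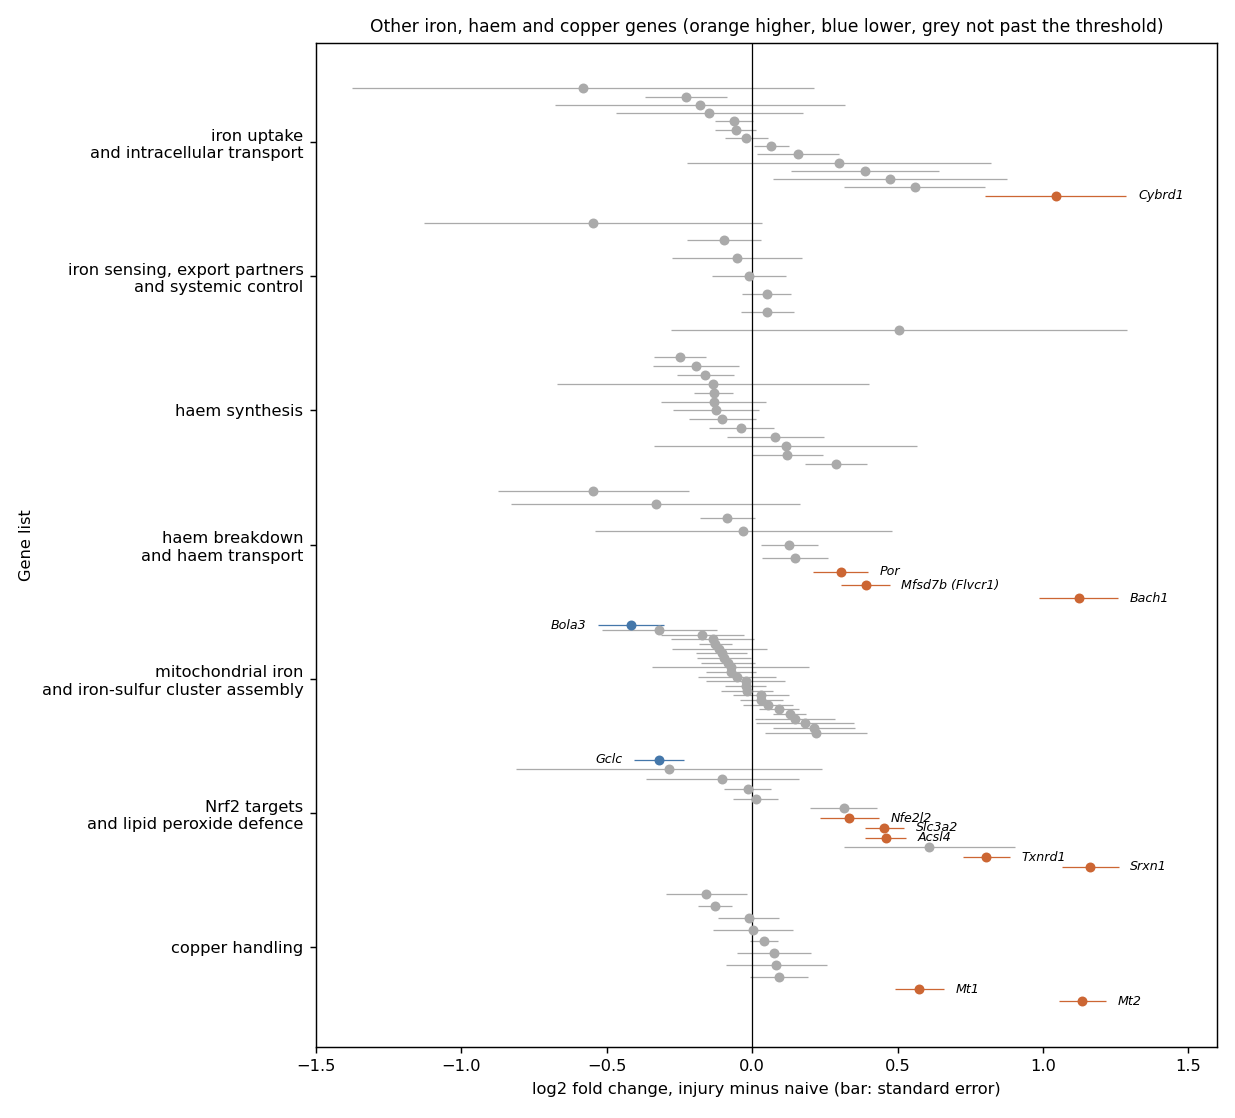
Log2 fold change, injury minus naive (x axis; bar, standard error), of the 89 tested genes in the 7 lists; orange genes rose, blue genes fell and grey genes were not called. Of the 13 called genes, 6 are in the Nrf2 and lipid peroxide list, 3 in haem breakdown and transport, and 2 in copper handling.

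Of 24 tested genes of mitochondrial iron and iron-sulfur cluster assembly 1 fell and none rose. Bola3, which helps hand on the mitochondrial clusters, fell, with a log2 fold change of -0.42 ± 0.11 (29.7 ± 1.09 CPM in naive and 22.3 ± 1.82 CPM in injury libraries, adjusted p = 0.0132). The list median was -0.04, and library totals called 2 of its genes. Of 10 tested copper genes 2 rose, the metal-binding metallothioneins Mt2 and Mt1. Mt2 had 119, 92.7, 98.1 and 121 CPM in naive and 235, 221, 240.5 and 251 CPM in injury libraries, without overlap. Its log2 fold change was 1.14 ± 0.08 (adjusted p = 3.54e-10), and Mt1 rose 1.49-fold (adjusted p = 3.58e-05). Both bind zinc as well as copper.

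Among 12 tested genes of Nrf2 targets and lipid peroxide defence 5 rose and 1 fell. Srxn1, which repairs oxidised peroxiredoxins, rose 2.24-fold, with 488 ± 11.3 CPM in naive and 1092 ± 177 CPM in injury libraries (adjusted p = 4.37e-06). Txnrd1, the cytosolic thioredoxin reductase, rose 1.75-fold (adjusted p = 1.18e-07). Slc3a2, the heavy chain of the cystine exchanger, rose 1.37-fold (adjusted p = 3.08e-05). Slc7a11, the light chain of that exchanger, did not pass the low-count filter, with 74 counts in all libraries. Acsl4, which activates polyunsaturated fatty acids and in that way feeds lipid peroxidation rather than opposing it, rose 1.37-fold (adjusted p = 4.80e-05). Gclc, the catalytic subunit of glutathione synthesis, fell from 60.6 ± 2.38 to 48.6 ± 3.30 CPM (adjusted p = 0.0137), and was not called without injury replicate 2 (0.0536, in a range of 0.00261 to 0.0536 over the alternatives). Nfe2l2, which encodes Nrf2, rose 1.26-fold (adjusted p = 0.0287) with overlapping groups. It was not called with library totals, nor when any library other than naive or injury replicate 1 was left out (adjusted p 0.0658 to 0.118, over all alternatives 0.00843 to 0.118). Nqo1, a classic Nrf2 target, had 5.01 ± 1.19 and 4.63 ± 0.832 CPM, and Gclm 102 ± 9.87 and 101 ± 8.05 CPM. Gpx4, also in this list, was scarce, at 1.63 ± 0.888 CPM in naive and 1.35 ± 0.421 CPM in injury libraries. It held 260 counts in all libraries, and why it was so low was not tested.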

How the data were processed

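QuantSeq 3′ REV libraries of total RNA were sequenced by the authors. They deposited raw counts by gene symbol as whole numbers. The tools named in the submitters' processing notes are bcl2fastq 2.17, STAR and HTSeq, with the build GRCm38 (mm10); the STAR and HTSeq versions, annotation and strand setting are not stated. Of 24060 rows, 27 whose symbols had become dates were left out (0.146% to 0.158% of counts). Genes were tested with edgeR 4.0.16 (R 4.3.3; filterByExpr, TMM, robust quasi-likelihood) in all 8 libraries without a block, with Benjamini-Hochberg adjustment over 13639 genes and a threshold of 0.05; the procedure was tested on simulated data. Standard errors are the absolute log2 fold change over the square root of F. Log2 CPM used a prior count of 2. Alternatives were a replicate block, DESeq2 1.42.0 size factors or test, library totals, no filter, a mean of at least 5 CPM, limma-voom (limma 3.58.1) and leaving out each library.

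The design text gives 2 mice per repeat for the injured and opposite ganglia. This is read here as the same mice on both sides, without an explicit statement, and within-pair values and the block rest on that reading. Deviations of same-numbered libraries correlated at 0.035 to 0.057. Those of libraries with different numbers correlated at -0.084 to 0.038, so the ranges overlap. Each naive library correlated most with the injury library of its own number. Injury replicate 4, however, correlated most with naive replicate 3 (0.038, against 0.035 with naive replicate 4). Correlations this small do not settle whether the mice were the same. As each library pools 2 mice, n counts pools, and p-values measure the spread between pools. All pairs of libraries within a group differed beyond sampling noise, with a chi-square over its degrees of freedom of 8.09 to 19.2. Members and lists were chosen with earlier results of these data known. The text names all 10 members, Steap4, up to 4 called genes per list by smallest p, and the 5 genes nearest to Steap1. Aco1, Ireb2, Gclc, Nfe2l2, Nqo1, Gclm, Gpx4 and Slc7a11 were added after their values were seen. Positions and transcripts are GENCODE M21; promoters are RefSeq.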

Additional observations from a re-analysis of the deposited data

Results flagged for a closer look

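Among 62 groups of 4 libraries looked at for the values above, 2 had a library whose gap to the nearest other one took up more of the group's range than Dixon's 95% limit allows; chance alone marks about 1 in 20 groups. Steap1 stood at 3.08 CPM in naive replicate 3 and at 4.82 to 5.01 CPM in the other naive libraries. Nfe2l2 stood at 38.5 CPM in naive replicate 1 and at 34.0 to 34.7 CPM in the other naive libraries.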

How the results depend on the processing

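With the replicate block 4 members were past the threshold in place of 2; the other alternatives gave 2 or 3, and leaving out single libraries gave 2 to 3. These counts describe genes chosen with the comparison known and are no evidence of stability. The log2 fold change ranged from 2.77 to 2.99 for Steap1 and from 0.51 to 0.62 for Slc11a2. Directions turned for Fth1 with library totals (-0.013) and for Slc40a1 without naive replicate 2 (-0.02) or injury replicate 1 (-0.17), in a leave-one-out range of -0.17 to 0.39; the cause was not tested. List genes called ranged from 10 to 14 around 13, and all genes called from 1299 to 2035 around 1717. Library totals gave 888 higher and 1001 lower of all genes, against 1108 and 609, and moved the median log2 fold change to -0.06. The block changed no call among the 13 named list genes. Counts were few for Slc40a1 (22 to 76 per library), Steap4 (20 to 31) and Ftl1 (0 to 17); why Ftl1 was so low was not tested.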
